A study of Rattus norvegicus with 9 samples.

Results

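Chemokines are small secreted proteins that draw leukocytes to a tissue, and 10 of them that act on neutrophils and monocytes were followed in the superior mesenteric artery (SMA), the vessel that supplies most of the small intestine. The members were Cxcl1, Cxcl2, Cxcl3, Cxcl10, Cxcl12, Cxcl16, Ccl2, Ccl3, Ccl7 and Cx3cl1. They were chosen by gene symbol, and all 10 were among the 37203 symbols of the count table. Counts were high enough for a test in 8 of them, and Cxcl3 and Ccl3 were left out by the filter on low counts.

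Arteries came from Sprague-Dawley rats that were 8 weeks old, and each of 3 groups (normal, ischemia for 1 h and ischemia for 4 h) held 3 rats. Ischemia was produced by bleeding anaesthetized rats through a catheter in the femoral artery, and the time ran from the end of the bleeding. Whether normal rats were also anaesthetized and catheterized is not stated in the sources used here, so surgery and blood loss cannot be told apart. Whole arteries were used, in which fewer cells of a type and less RNA per cell cannot be told apart.

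Chemokines fall into classes by the spacing of their first cysteines. CXC chemokines with a Glu-Leu-Arg motif, such as Cxcl1 to Cxcl3, act on the receptor Cxcr2 of neutrophils, and CC chemokines such as Ccl2 and Ccl7 act on Ccr2 of monocytes. Most of them are made on demand by endothelial cells, smooth muscle cells, fibroblasts and macrophages when cytokines activate the transcription factor NF-kB. Cxcl12 is made steadily by stromal cells, and Cx3cl1 and Cxcl16 are made as membrane proteins whose outer part can be shed.

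Of the 10 members, 7 had a promoter in the RefSeq table of assembly GRCr8, which held 250 bases before and 50 bases after the start of transcription. Promoters of 5 members are shown, of which Cxcl1, Cxcl2, Cxcl10 and Ccl7 had all 6 ischemic libraries above all 3 normal libraries and Cxcl12 did not. Capitals mark matches to the NF-kB motif, a consensus of 10 bases searched on both strands. Sequences of like form outside that consensus are not marked, such as gggaacttcc in Cxcl10, so the matches depend on the consensus used. The promoters lie at chr14:17479272-17479571 on the minus strand for Cxcl1, at chr14:17467206-17467505 on the minus strand for Cxcl2, and at chr14:15988816-15989115 on the plus strand for Cxcl10. They lie at chr10:67513845-67514144 on the plus strand for Ccl7 and at chr4:152060531-152060830 on the plus strand for Cxcl12. Each one reads 5′ to 3′ along its gene.
Cxcl1: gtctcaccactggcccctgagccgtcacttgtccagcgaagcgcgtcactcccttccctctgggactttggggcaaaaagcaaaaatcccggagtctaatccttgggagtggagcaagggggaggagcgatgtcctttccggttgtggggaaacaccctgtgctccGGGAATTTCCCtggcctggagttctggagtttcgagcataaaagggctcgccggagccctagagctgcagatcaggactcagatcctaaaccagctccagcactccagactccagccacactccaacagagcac
Cxcl2: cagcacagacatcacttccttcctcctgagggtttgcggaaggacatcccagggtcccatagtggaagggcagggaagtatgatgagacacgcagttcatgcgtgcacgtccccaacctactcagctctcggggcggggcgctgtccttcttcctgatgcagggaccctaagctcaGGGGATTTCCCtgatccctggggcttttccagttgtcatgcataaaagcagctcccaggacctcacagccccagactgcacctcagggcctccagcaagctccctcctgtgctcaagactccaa
Cxcl10: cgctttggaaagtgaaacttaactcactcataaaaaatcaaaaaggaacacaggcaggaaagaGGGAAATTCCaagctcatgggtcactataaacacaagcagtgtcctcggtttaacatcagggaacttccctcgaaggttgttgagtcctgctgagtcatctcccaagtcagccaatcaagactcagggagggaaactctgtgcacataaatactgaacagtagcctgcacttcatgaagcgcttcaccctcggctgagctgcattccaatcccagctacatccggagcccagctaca
Ccl7: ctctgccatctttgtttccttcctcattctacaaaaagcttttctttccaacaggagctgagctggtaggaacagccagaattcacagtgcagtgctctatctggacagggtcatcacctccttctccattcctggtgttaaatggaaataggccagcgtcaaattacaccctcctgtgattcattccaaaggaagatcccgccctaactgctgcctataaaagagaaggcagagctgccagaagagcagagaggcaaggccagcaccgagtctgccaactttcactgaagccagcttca
Cxcl12: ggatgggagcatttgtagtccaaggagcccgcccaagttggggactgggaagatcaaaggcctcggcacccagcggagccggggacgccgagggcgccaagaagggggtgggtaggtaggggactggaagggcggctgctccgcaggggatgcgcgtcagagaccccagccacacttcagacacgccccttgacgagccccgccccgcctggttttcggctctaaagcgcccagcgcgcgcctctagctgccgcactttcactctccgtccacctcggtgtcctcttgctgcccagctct

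The NF-kB motif matched in 3 of the 7 promoters, against 4.18% of the 33469 promoters in the table. In Cxcl1 the match was GGGAATTTCCC, from base -84 to base -74 counted from the start of transcription, and in Cxcl2 it was GGGGATTTCCC, from base -74 to base -64. Each of these holds a pair of overlapping matches within 11 bases. In Cxcl10 the match was GGGAAATTCC, from base -187 to base -178. The AP-1 motif TGANTCA was found in the promoters of Cxcl10 and Ccl7 (7.33% of all promoters), and the sequence TATAA, read on the gene's strand only, in those of Cxcl10, Ccl7 and Cx3cl1 (18.4%). The hypoxia response element core ACGTG was found in the promoter of Cxcl2 (19.3%), and no motif searched was found in those of Cxcl12 and Cxcl16. No match overlapped one of another motif, and a match describes these letters and not a bound site. The genes Cxcl2 and Cxcl1 are next to each other among the protein-coding genes of chromosome 14, with 1 further gene between Cxcl1 and Cxcl3, and Ccl2 and Ccl7 are next to each other on chromosome 10.

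**Figure D1:**
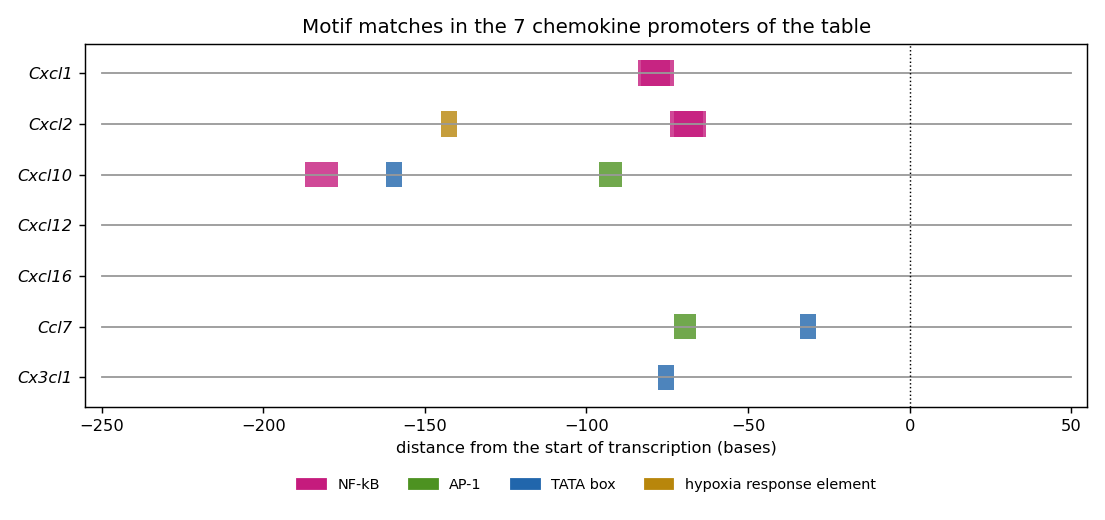
Motif matches in 7 chemokine promoters, by distance in bases from the start of transcription (dotted line), with each gray line a promoter and each colored block a match. NF-kB matches lie at -84 to -74 in Cxcl1, at -74 to -64 in Cxcl2 and at -187 to -178 in Cxcl10, and the lines of Cxcl12 and Cxcl16 hold no block.

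Levels are given as CPM, counts per 1000000 of the library size after TMM scaling, and 1 CPM stood for 12.1 to 17.9 counts. Total counts per library ran from 13114273 to 15504240. Markers of the vessel wall were plentiful, with a summed level of 10988 to 69809 CPM for 10 smooth muscle genes and 875 to 1915 CPM for 12 endothelial genes. Of the 12 endothelial genes, 3 had a lower level at an unadjusted p under 0.05 at each time. Over all genes, 16.7% at 1 h and 12.4% at 4 h had such a p in either direction. Genes that were higher made up 7.98% and 5.07% of all genes, and the rest of these shares was lower. Of the 12, 0 were called, against 0.0581% and 0.0904% of all genes. Markers of peripheral nerve set some libraries apart, with a summed level for 22 genes of 9903 and 10292 CPM in replicates 1 and 3 at 1 h and 10138 CPM in replicate 3 at 4 h. In the other 6 libraries that sum ran from 98.2 to 2777 CPM.

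To ask whether the artery wall made chemokines early after blood loss, rats at 1 h were compared with normal rats. Genes counted as called had a fold change over 1.5 and, in edgeR over 15482 genes, an adjusted p under 0.05. By that rule 0 of the 10 members were called, against 0.0581% of all genes, and DESeq2 called 5 (Cxcl1, Cxcl2, Cxcl10, Ccl2 and Ccl7), against 4.53% of all genes in DESeq2. At an unadjusted p under 0.05 there were 6 members in edgeR, all of them higher, against 16.7% of all genes in either direction and 7.98% higher. In 5 members the libraries at 1 h all lay above the normal libraries, as in 12.8% of all genes. Cxcl2 and Cxcl10, with at most 1 and 16 counts in a normal library, passed the low-count filter through the ischemic groups, so these counts are a description.

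Cxcl1, the main neutrophil chemokine of the rat, had the largest difference in CPM at 1 h among the members. It was at 1.17, 1.02 and 4.58 CPM in normal replicates 1 to 3. At 1 h it was at 118, 445 and 604 CPM, and at 4 h at 73.0, 204 and 628 CPM. All 6 ischemic libraries were far above all 3 normal libraries, and they differed widely among themselves. The mean went from 2.26 ± 2.01 to 389 ± 248 CPM at 1 h (SD, n = 3 each). That is a log2 fold change of 7.43 (SE 1.20, edgeR adjusted p = 0.117). At 4 h the mean was 301 ± 290 CPM, a log2 fold change of 7.07 (SE 1.18, edgeR adjusted p = 0.0712).

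Cxcl2, a second ligand of Cxcr2, was all but absent from normal arteries. It had 0, 0 and 1 counts in normal arteries, and stood at 8.95, 17.4 and 22.6 CPM at 1 h and at 1.90, 3.98 and 25.1 CPM at 4 h. The summed counts were 1 in the normal group and 763 at 1 h, a ratio of 745 after scaling (95% exact interval 133 to 29463, for counting error only), and 452 at 4 h, a ratio of 519 (92.7 to 20539). The fitted log2 fold changes of 9.04 at 1 h (SE 1.46, edgeR adjusted p = 0.117) and 8.38 at 4 h (SE 1.45, edgeR adjusted p = 0.0721) depend on the prior count. Without replicate 3 at 4 h the adjusted p at 1 h was 0.0226, a call, against 0.0376% of all genes in that fit, and with other libraries left out one at a time it ran up to 0.413.

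Cxcl3, a further ligand of Cxcr2, had no count in the normal libraries, where 3 counts would be 0.168 to 0.221 CPM. It had 0, 8 and 13 counts at 1 h and 0, 0 and 8 counts at 4 h. Against a floor of 3 counts over the normal group, which had 0, its 21 counts at 1 h gave a level at least 6.83-fold higher. This value allows for counting error in the normal group only and takes the counts at 1 h as exact. The groups overlapped at both times, and at 4 h every count was from replicate 3. The libraries with counts of Cxcl3 were the 3 with the most counts of Cxcl1. Cxcl1, Cxcl2 and Cxcl3 resemble each other in sequence, and how reads that fit more than one of them were counted is not given in the sources used here.

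The ratio of Cxcl1 counts to Cxcl2 counts was 13.2, 25.6 and 26.7 at 1 h and 38.4, 51.2 and 25.0 at 4 h. Replicate 3 at 4 h was thus close to replicates 2 and 3 at 1 h in this ratio, and the other libraries at 4 h had fewer Cxcl2 counts per Cxcl1 count.

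**Figure D2:**
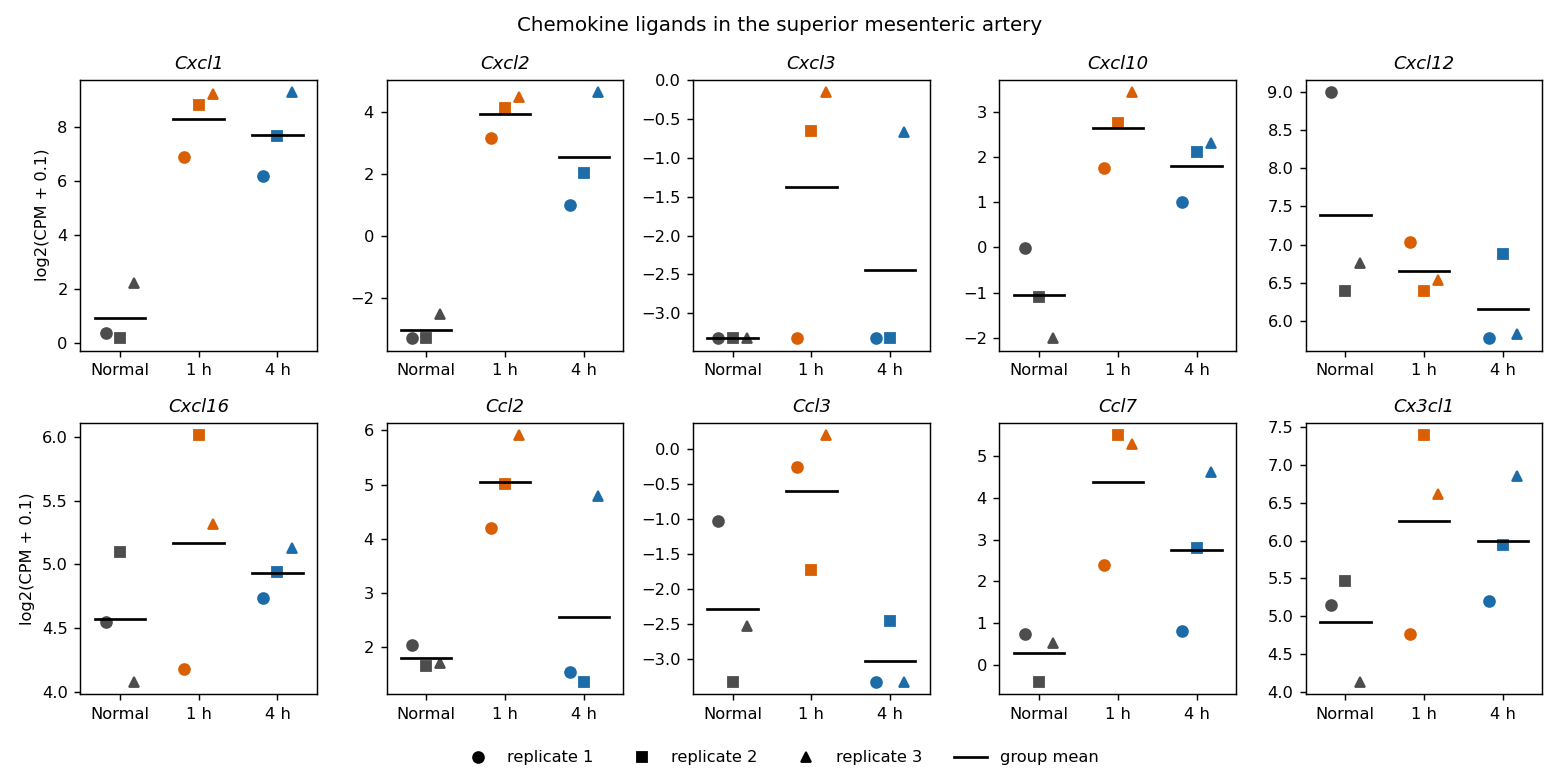
Level of each chemokine as log2(CPM + 0.1) in the 9 libraries, with 1 panel per gene, symbols for replicates and a line at the mean of the log values of each group. Cxcl1, Cxcl2, Cxcl10 and Ccl7 are higher in all 6 ischemic libraries than in the 3 normal ones, and Ccl2 at 4 h is high in replicate 3 (27.6 CPM) and not in replicates 1 and 2 (2.81 and 2.49 CPM).

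Ccl2, the main attractant of monocytes, was at 4.02, 3.06 and 3.17 CPM in normal arteries and at 18.4, 32.4 and 60.1 CPM at 1 h. The groups did not overlap, and the log2 fold change was 3.43 (SE 0.97, edgeR adjusted p = 0.224), from 3.42 ± 0.53 to 37.0 ± 21.2 CPM (SD, n = 3 each). At 4 h it was at 2.81, 2.49 and 27.6 CPM. Replicates 1 and 2 at 4 h were below every normal library, and replicate 3 was within the range at 1 h. The log2 fold change at 4 h was 1.68 (SE 0.91, edgeR adjusted p = 0.494), and without replicate 3 at 4 h it was -0.37.

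Ccl7, the neighbour of Ccl2 and a further ligand of Ccr2, was at 1.57, 0.66 and 1.33 CPM in normal arteries. It was at 5.15, 45.2 and 38.9 CPM at 1 h and at 1.65, 6.88 and 24.4 CPM at 4 h. All 6 ischemic libraries lay above the normal ones, although replicate 1 at 4 h barely did so. That library had 20 counts and normal replicate 1 had 28, so their order rests on the TMM scaling (factors of 0.814 and 1.17). Log2 fold changes were 4.63 at 1 h (SE 1.14, edgeR adjusted p = 0.210) and 3.20 at 4 h (SE 1.08, edgeR adjusted p = 0.285). Without replicate 3 at 4 h the latter was 1.83.

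The pair did not keep one ratio. Counts of Ccl2 per count of Ccl7 were 2.57, 4.67 and 2.39 in normal arteries, 3.57, 0.716 and 1.55 at 1 h, and 1.70, 0.361 and 1.13 at 4 h, so that in replicate 2 of either ischemic group Ccl7 had more counts than Ccl2.

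Ccl3, a chemokine that macrophages and neutrophils make, stayed near the limit of counting. It had 7, 0 and 1 counts in normal arteries, 11, 3 and 17 counts at 1 h and 0, 1 and 0 counts at 4 h. The summed counts were 31 at 1 h and 8 in the normal group, a ratio of 3.78 (95% exact interval 1.70 to 9.53, for counting error only), but the libraries overlapped. All 3 libraries at 4 h were below all 3 at 1 h, and the level at 1 h was 26.4 times that at 4 h (4.39 to 1075).

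Cxcl10, a ligand of Cxcr3 that is induced by interferons and by NF-kB, was at 0.89, 0.36 and 0.15 CPM in normal arteries. It was at 3.27, 6.61 and 10.7 CPM at 1 h and at 1.90, 4.23 and 4.88 CPM at 4 h. The groups did not overlap at either time. Log2 fold changes were 3.82 at 1 h (SE 0.75, edgeR adjusted p = 0.146) and 2.92 at 4 h (SE 0.73, edgeR adjusted p = 0.169). With each library left out in turn they ran from 3.36 to 4.70 at 1 h and from 2.51 to 3.79 at 4 h.

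Cx3cl1, or fractalkine, holds monocytes at the endothelium while it is bound to the membrane. It was at 35.4, 44.2 and 17.5 CPM in normal arteries, at 27.1, 168 and 97.9 CPM at 1 h and at 36.9, 61.1 and 115 CPM at 4 h. Replicate 1 of both ischemic groups was within the normal range, and the other 4 ischemic libraries were above it. Log2 fold changes were 1.59 at 1 h (SE 0.68, edgeR adjusted p = 0.295) and 1.13 at 4 h (SE 0.67, edgeR adjusted p = 0.527). Without replicate 2 at 1 h the value at 1 h was 0.95, and without replicate 3 at 4 h the value at 4 h was 0.60.

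Cxcl16, the other membrane chemokine and a scavenger receptor, differed least. It was at 23.3, 34.1 and 16.8 CPM in normal arteries, 18.04, 64.4 and 39.8 CPM at 1 h and 26.5, 30.6 and 34.8 CPM at 4 h, and the groups overlapped at both times. Log2 fold changes were 0.72 at 1 h (SE 0.44, edgeR adjusted p = 0.387) and 0.31 at 4 h (SE 0.44, edgeR adjusted p = 0.799).

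Cxcl12, which keeps stem cells and lymphocytes in place through Cxcr4, was the one member with a lower mean after ischemia at both times. It was at 510, 83.7 and 109 CPM in normal arteries, 131, 84.1 and 92.9 CPM at 1 h and 54.5, 117 and 56.7 CPM at 4 h. Normal replicate 1 stood above the other 8 libraries, which lay between 54.5 and 131 CPM. Log2 fold changes were -1.19 at 1 h (SE 0.67, edgeR adjusted p = 0.358) and -1.62 at 4 h (SE 0.68, edgeR adjusted p = 0.388). Without normal replicate 1 they were 0.094 and -0.34. Among normal libraries that one also had the highest summed level of lymphocyte (55.4 CPM), monocyte (255 CPM), adipocyte (2388 CPM) and nerve (2777 CPM) markers and the lowest of smooth muscle markers (10988 CPM), and the part of these in the result was not tested. Replicate 3 at 1 h had like sums of lymphocyte (55.9 CPM) and monocyte (260 CPM) markers, with Cxcl12 at 92.9 CPM.

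In the late stage, 4 h against normal, 0 of the 10 members were called in edgeR, against 0.0904% of all genes, and DESeq2 called 4 (Cxcl1, Cxcl2, Cxcl10 and Ccl7), against 3.91% of all genes in DESeq2. There were 5 members at an unadjusted p under 0.05, against 12.4% of all genes. Of these Cxcl1, Cxcl2, Cxcl10 and Ccl7 were higher, against 5.07% of all genes, and Cxcl12 was lower. Without replicate 3 at 4 h there were 3 (Cxcl1, Cxcl2 and Cxcl10), against 11.6% of all genes. In 4 members the libraries at 4 h all lay above the normal ones, against 7.94% of all genes, and these were the 4 in which all 6 ischemic libraries did so, against 4.00% of all genes. Both comparisons use the same normal libraries. For Ccl7 the place of replicate 1 at 4 h above the normal libraries rests on the TMM scaling. Cxcl2 and Cxcl10 passed the low-count filter through the ischemic groups, so the counts at 4 h are a description as well.

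**Figure D3:**
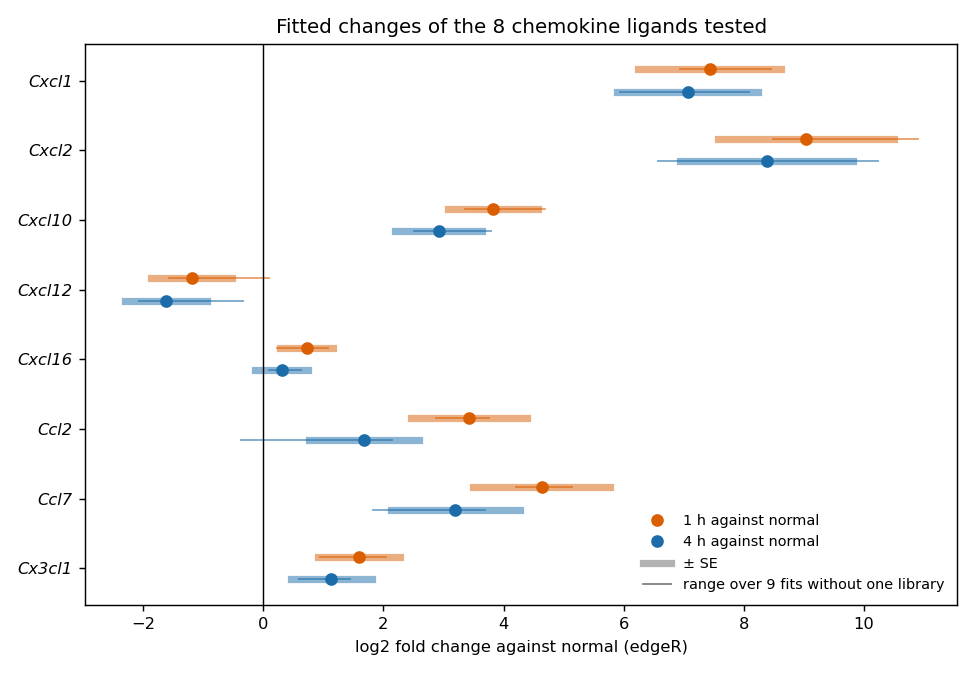
Fitted log2 fold change against normal for the 8 members tested, at 1 h (orange) and 4 h (blue), with thick bars for ± SE and thin lines for the range when each of the 9 libraries was left out in turn. The thin lines of Cxcl12 at 1 h and Ccl2 at 4 h cross 0, reaching 0.094 and -0.37, and those of Cxcl1, Cxcl2, Cxcl10 and Ccl7 stay above 0.

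To see whether chemokine levels differed between the stages, 4 h was compared with 1 h. In edgeR 0 of the 10 members were called, against 0% of all genes, and DESeq2 called 0 as well. At an unadjusted p under 0.05 there were 0 members in edgeR and 1 in DESeq2, against 2.58% of all genes in edgeR and 3.62% in DESeq2. Means at 4 h were lower than at 1 h in all 10 members, and log2 fold changes of the 8 tested ran from -1.75 for Ccl2 (SE 0.90, edgeR adjusted p = 0.856) to -0.37 for Cxcl1 (SE 0.90, edgeR adjusted p = 0.895). Of the 10, Ccl3 alone had non-overlapping groups, lower at 4 h, against 3.03% of all genes. Replicate 3 was the highest library at 4 h for 8 of the 10 members, the exceptions being Cxcl12 and Ccl3. Without it, Ccl2, Ccl7 and Cxcl2 had an unadjusted p under 0.05, with log2 fold changes of -3.80, -2.80 and -2.47, but so had 20.7% of all genes in that fit. Without any one normal library, replicate 2 at 1 h or replicate 2 at 4 h, Ccl3 passed the filter and was the 1 member at an unadjusted p under 0.05, against 1.21 to 5.60% of all genes. It passed through its 11 and 17 counts in replicates 1 and 3 at 1 h, its higher group, so this is a description.

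Levels of the ischemic libraries were set beside those of nerve markers. The replicate 3 libraries, with summed nerve levels of 10292 CPM at 1 h and 10138 CPM at 4 h, were the highest of their group for 6 and 8 of the 10 members. Replicate 1 at 4 h, with the lowest nerve level of the ischemic libraries at 253 CPM, had the lowest Cxcl1 of them at 73.0 CPM and was the highest for 0 members. The order was not the same throughout. Replicate 1 at 1 h, with 9903 CPM of nerve markers, had 118 CPM of Cxcl1, and replicate 2 at 1 h, with 1992 CPM, had 445 CPM of Cxcl1 and the highest Ccl7, Cx3cl1 and Cxcl16 at 1 h. The mean log2 level of the nerve markers was 5.32, 0.13 and 4.16 in normal arteries. It was 7.79, 5.38 and 7.91 at 1 h, above every normal library, and 0.95, 1.79 and 7.82 at 4 h. As a covariate it thus cannot be fully told apart from ischemia, at 1 h above all. In a fit with this covariate, Cxcl1 had a log2 fold change of 6.50 at 1 h (edgeR adjusted p = 0.105) and 6.64 at 4 h (edgeR adjusted p = 0.0325). That of Cxcl2 was 7.85 at 1 h (edgeR adjusted p = 0.0453) and 7.78 at 4 h (edgeR adjusted p = 0.0202). These calls, 1 member at 1 h and 2 at 4 h, stand against 0.116% and 0.866% of all genes in that fit. Those of Ccl2 were 2.06 at 1 h (edgeR adjusted p = 0.434) and 0.74 at 4 h (edgeR adjusted p = 0.624). Those of Ccl7 were 3.80 and 2.72 (edgeR adjusted p = 0.321 and 0.212), and those of Cxcl10 were 3.36 and 2.87 (edgeR adjusted p = 0.250 and 0.104). In all 5 of these members both fold changes were smaller than without the covariate, as were those of Cx3cl1 (1.48 at 1 h and 1.07 at 4 h). Those of Cxcl16 were larger, at 0.94 and 0.38 against 0.72 and 0.31. Cxcl12 was at -1.56 against -1.19 at 1 h and at -1.40 against -1.62 at 4 h.

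Leukocyte markers were examined next. Of 14 neutrophil markers, Elane, Cd177 and Fpr1, which code for neutrophil elastase, a surface antigen and the formyl peptide receptor, had no count in any library. S100a8 and S100a9, which neutrophils express heavily, had 0 to 7 and 0 to 12 counts per library. S100a8 had 0, 0 and 0 counts in normal arteries, 3, 2 and 3 at 1 h and 0, 7 and 1 at 4 h. S100a9 had 1, 3 and 0 counts in normal arteries, 12, 7 and 11 at 1 h and 0, 12 and 12 at 4 h. Both were higher in all libraries at 1 h than in normal ones, at few counts, as were 12.8% of all genes tested. Mmp8, with 0, 0 and 0 counts in normal arteries and 1, 4 and 6 at 1 h, and Lcn2 had the same order. The remaining neutrophil markers did not separate in this way at 1 h. Mpo had 45, 11 and 6 counts in normal arteries, 75, 8 and 31 at 1 h and 11, 1 and 40 at 4 h, with overlapping groups. Without Lcn2, which other cells also make under stress, the summed level of the other 13 genes was 3.13, 1.60 and 1.18 CPM in normal arteries, 6.75, 2.14 and 4.54 CPM at 1 h and 0.99, 2.82 and 4.68 CPM at 4 h. Lcn2 itself was at 9.89, 7.0 and 5.90 CPM in normal arteries, 12.03, 67.3 and 77.6 CPM at 1 h and 2.81, 13.01 and 47.6 CPM at 4 h, highest in the libraries with the most Cxcl1. Monocyte and macrophage markers, 13 of 14 in the table, summed to 63.8 to 255 CPM in normal arteries, 125 to 260 CPM at 1 h and 49.7 to 144 CPM at 4 h, with all groups overlapping. Whether leukocytes contributed to the chemokine counts was not tested.

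**Figure D4:**
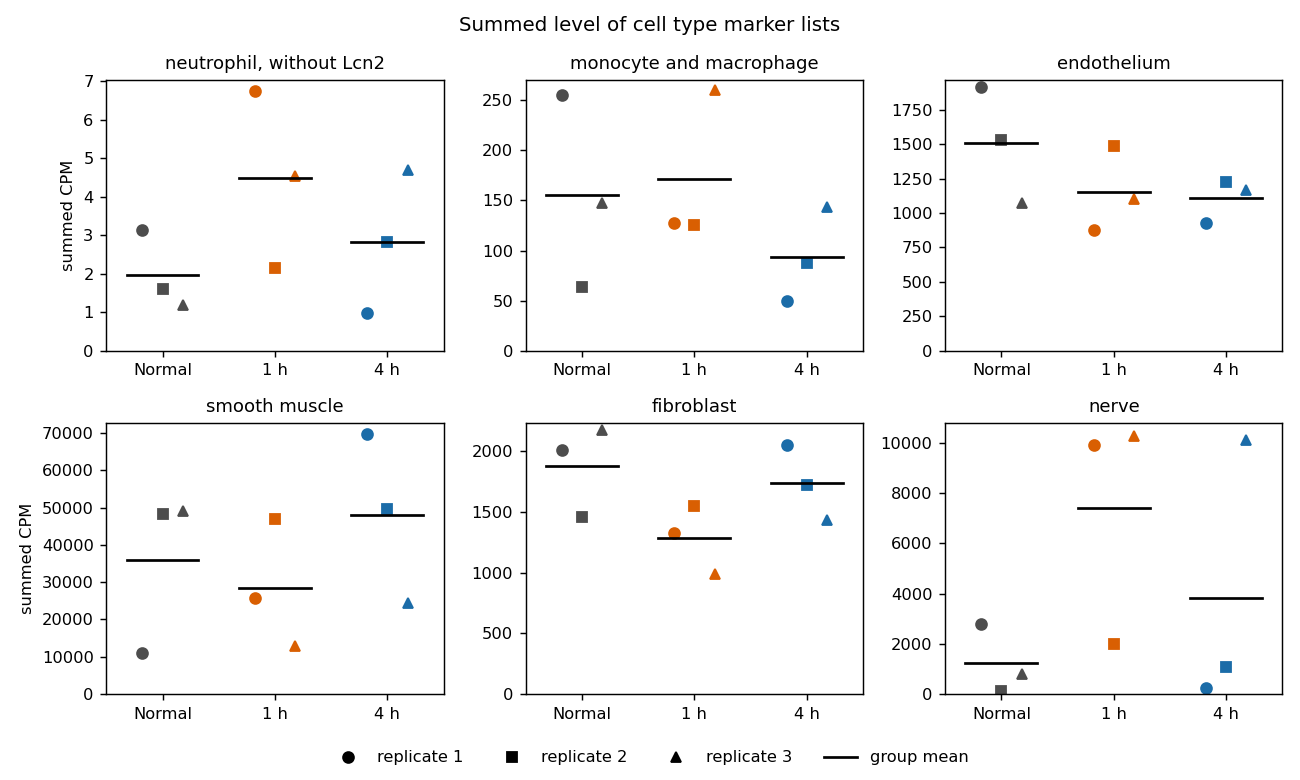
Summed CPM of 6 marker lists in each library, with symbols for replicates and a line at each group mean. Neutrophil markers without Lcn2 stay at or below 6.75 CPM, and the nerve sum is 9903 to 10292 CPM in 3 ischemic libraries and at most 2777 CPM in the other 6.

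The receptors of these ligands were mostly too low to test. Of 23 receptor genes listed, 21 were in the table and 7 were tested. Cxcr1 had no count in any library, where 3 counts would be 0.168 to 0.249 CPM, and Cxcr2, the receptor of Cxcl1 to Cxcl3, was at 0 to 0.47 CPM. In the 7 tested, 0 were called at either time, against 0.0581% of all genes at 1 h and 0.0904% at 4 h. An unadjusted p under 0.05 was found for 2 at 1 h and 2 at 4 h, against 16.7% and 12.4% of all genes. Median log2 fold changes were 0.93 and -0.064, against -0.0076 and 0.027 over all genes.

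Ackr4, an atypical receptor that takes up and destroys Ccl19 and Ccl21, had the lowest unadjusted p among the receptors. It was at 37.5, 79.1 and 83.3 CPM in normal arteries, 6.75, 19.0 and 4.91 CPM at 1 h and 4.38, 17.2 and 14.7 CPM at 4 h. All 6 ischemic libraries were below all 3 normal ones, and the share of all genes with that order was not counted. Log2 fold changes were -2.70 at 1 h (SE 0.68, edgeR adjusted p = 0.210) and -2.46 at 4 h (SE 0.67, edgeR adjusted p = 0.197), so it was not called. Its ligand Ccl21 was at 208, 140 and 145 CPM in normal arteries, 93.6, 83.8 and 103 CPM at 1 h and 409, 146 and 69.9 CPM at 4 h.

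Ackr1, which binds many CC and CXC chemokines on venular endothelium and red cells, was at 199, 24.2 and 14.2 CPM in normal arteries and at 22.7 to 150 CPM in ischemic rats, so the groups overlapped. Ccrl2, which presents chemerin, was at 4.81, 8.24 and 3.76 CPM in normal arteries and at 6.69, 15.0 and 21.7 CPM at 4 h (log2 fold change 1.37, SE 0.54, edgeR adjusted p = 0.350). Cxcr5, the receptor of Cxcl13, was at 9.78, 6.34 and 2.44 CPM in normal arteries and 7.28, 30.2 and 22.8 CPM at 1 h (log2 fold change 1.70, SE 0.66, edgeR adjusted p = 0.284).

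Of 25 other chemokine ligands listed, all were in the table and 10 were tested. At either time 0 were called, against 0.0581% of all genes at 1 h and 0.0904% at 4 h. Over all genes, 16.7% at 1 h and 12.4% at 4 h had an unadjusted p under 0.05. At 1 h only Cxcl14 had an unadjusted p under 0.05, from 1.79, 3.50 and 0.66 CPM to 10.4, 2.54 and 9.93 CPM (log2 fold change 1.94, SE 0.80, edgeR adjusted p = 0.290). At 4 h only Ccl24 did, from 4.58, 1.46 and 3.84 CPM to 1.65, 0.75 and 0.99 CPM (log2 fold change -1.54, SE 0.52, edgeR adjusted p = 0.289). With no filter on low counts, 3 of the list had an unadjusted p under 0.05 at 1 h and 2 at 4 h. In that fit 12.5% and 8.56% of all genes did. The median log2 fold change of the 10 was -0.36 at 1 h and -1.004 at 4 h.

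Of 10 genes for processing of chemokines, 8 were tested and 0 were called, against 0.0581% of all genes at 1 h and 0.0904% at 4 h. Adam10 and Adam17, the proteases that shed Cx3cl1 and Cxcl16, were at 46.6 to 172 CPM and 45.4 to 73.9 CPM over the 9 libraries, with overlapping groups. Timp1, an inhibitor of matrix metalloproteinases and of Adam10, was at 28.3, 35.4 and 45.5 CPM in normal arteries and 30.3, 142 and 83.2 CPM at 1 h (log2 fold change 1.23, SE 0.48, edgeR adjusted p = 0.285). The median log2 fold change of the 8 was -0.14 at 1 h and -0.064 at 4 h.

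Of 25 cytokines and regulators that act upstream of chemokine genes, 20 were tested. Nfkbia and Nfkbiz were called at each time, against 0.0581% of all genes at 1 h and 0.0904% at 4 h. At an unadjusted p under 0.05 there were 10 higher and 1 lower at 1 h, where 7.98% of all genes were higher. At 4 h there were 9 higher and 0 lower, where 5.07% of all genes were higher. Median log2 fold changes were 1.14 and 0.65. Nfkbia, the NF-kB inhibitor that is itself an NF-kB target, rose from 125, 94.0 and 103 CPM to 495, 658 and 482 CPM at 1 h (log2 fold change 2.35, SE 0.28, edgeR adjusted p = 0.0454) and to 514, 890 and 689 CPM at 4 h (log2 fold change 2.70, SE 0.28, edgeR adjusted p = 0.0247). Nfkbiz, a nuclear cofactor of NF-kB, rose from 9.95, 14.7 and 8.41 CPM to 76.8, 146 and 117 CPM at 1 h (log2 fold change 3.36, SE 0.33, edgeR adjusted p = 0.0193) and to 71.5, 96.3 and 112 CPM at 4 h (log2 fold change 3.08, SE 0.33, edgeR adjusted p = 0.0247).

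Over 16 other fits, Nfkbiz kept its call in 8 at either time, and Nfkbia in 3 at 1 h and 8 at 4 h. Zc3h12a and Zfp36, which code for proteins that break down cytokine and chemokine mRNAs, had log2 fold changes of 1.99 (SE 0.41, edgeR adjusted p = 0.159) and 2.11 (SE 0.48, edgeR adjusted p = 0.188) at 1 h. In both, all ischemic libraries lay above all normal ones, as in 4.00% of all genes. In the ischemic libraries Nfkbia ranged from 482 to 890 CPM, a narrower spread than that of Cxcl1 in the same libraries, from 73.0 to 628 CPM.

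**Figure D5:**
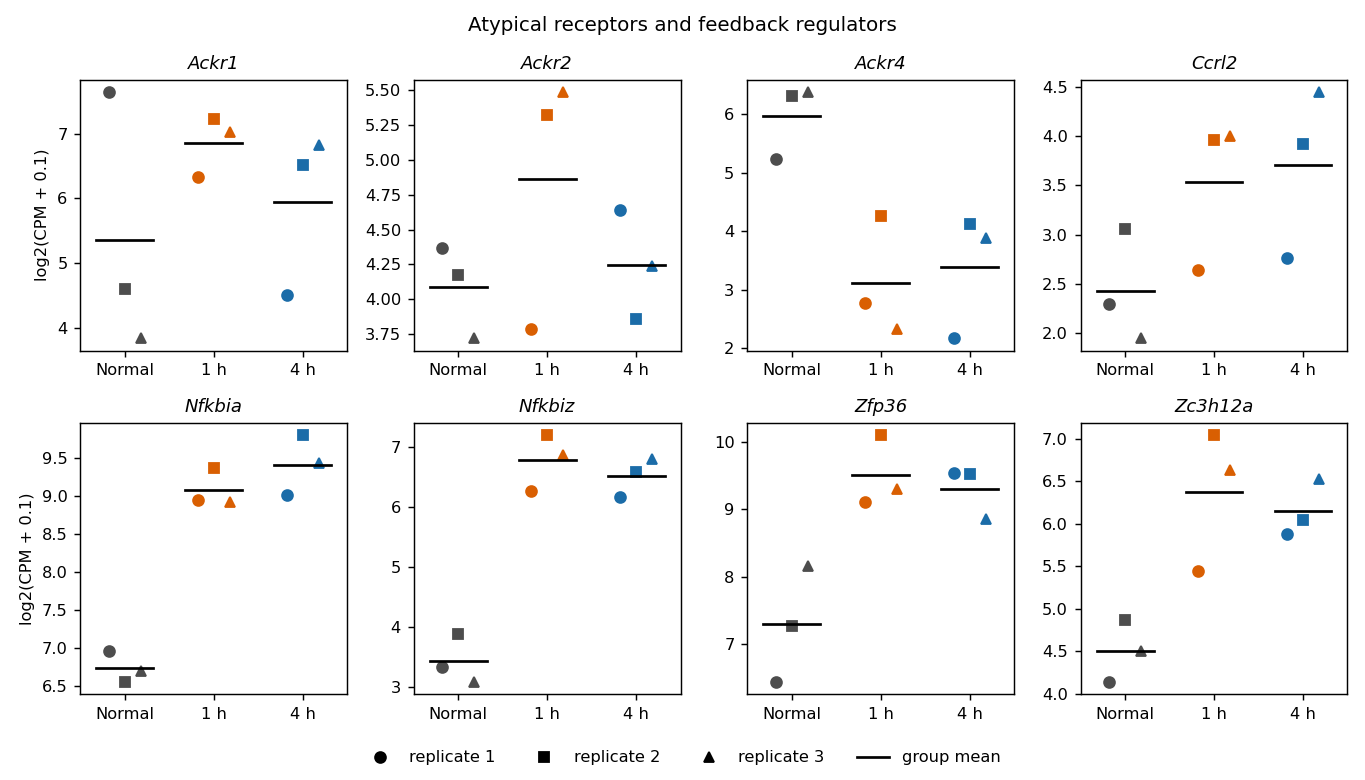
Levels of 4 atypical receptors and 4 regulators as log2(CPM + 0.1) in the 9 libraries, with symbols for replicates and a line at the mean of the log values of each group. Ackr4 is lower in all 6 ischemic libraries (4.38 to 19.0 CPM) than in normal ones (37.5 to 83.3 CPM). Nfkbia, Nfkbiz, Zfp36 and Zc3h12a are higher in all 6, as are 4.00% of all genes.

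Genes with a pattern most like that of each member were sought among 10431 named genes with at least 5 CPM on average, by Pearson's r of log2 CPM over the 9 libraries, which share depth and tissue makeup. For Cxcl1 the closest were Csf3, the gene of granulocyte colony-stimulating factor (r = 0.995), Tiparp (0.976) and Ankrd17 (0.969). Csf3 was at 0.056, 0 and 0.44 CPM in normal arteries, 6.35, 29.9 and 61.4 CPM at 1 h and 6.69, 12.5 and 42.1 CPM at 4 h. For Cxcl2 they were Zfr (0.985), Tiparp (0.983) and Ankrd17 (0.982), and for Cxcl10 Chka (0.978), Sgk1 (0.975) and Inhbb (0.972). A high r does not mean a change of like size, as Ankrd17 was at 88.7 to 92.8 CPM in normal arteries and 116 to 146 CPM in ischemic ones.

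For Ccl2 the closest genes were Trib1 (r = 0.995), Bcr (0.966) and Myo9a (0.962). Trib1 was at 3.80, 3.50 and 3.40 CPM in normal arteries, 13.4, 20.6 and 29.3 CPM at 1 h and 3.55, 3.65 and 16.6 CPM at 4 h, so it too was high at 4 h in replicate 3 alone. For Ccl7 they were Tnfaip3 (0.983), Rel (0.982) and Rnd1 (0.976). For Cx3cl1 they were Purb (0.972), Zcchc6 (0.964) and Etv3 (0.963), for Cxcl16 Ranbp2 (0.977), Appbp2 (0.968) and Socs4 (0.948), and for Cxcl12 Gpam (0.954), Parp12 (0.932) and Uap1l1 (0.931). Like Cxcl12, the last 3 genes were highest in normal replicate 1, with Gpam at 144 CPM there and 31.2 to 59.2 CPM elsewhere. These are the 3 highest r of 10431 genes for each member, so they are a description, and shared regulation was not tested.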

How the data were processed

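RNA of 9 superior mesenteric arteries, 3 per group, was sequenced. The authors deposited raw counts per gene symbol, and HISAT2 is named in the submitters' processing notes. The version, genome build, annotation, counting program and use of strand are not given in the sources used here. The study also speaks of Agilent microarrays for these samples, while the deposited values are whole-number counts. Of 37203 symbols, 13156 had no count. Libraries were analysed as separate rats. The study's text can also be read as describing the same individuals in every condition, which the labels do not settle.

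In R 4.3.3, edgeR 4.0.16 was used with filterByExpr, TMM scaling and the quasi-likelihood F-test on all 9 libraries, group as the only term, and Benjamini-Hochberg adjustment over 15482 genes. The SE is the log2 fold change divided by the square root of F. The common biological coefficient of variation was 51.6%. Alternatives were DESeq2 1.42.0, other scalings, no filter, only the groups compared, a replicate block, a nerve marker score as covariate, and leaving out each library. On simulated counts of 15482 genes with 200 changed at 1 h against normal, edgeR called 19% of the genes changed 4-fold, 71% of those changed 8-fold and 76% of those changed 16-fold. False calls numbered 2, 8 and 7. The changed genes were drawn at random from all genes tested, each with its own spread, so these shares do not describe the members. No library was a copy of another (chi-square over its degrees of freedom at least 29.8 in every pair).

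The members, gene lists and tests were chosen with earlier results of these data known. All 10 members are named. Of each pathway list, genes at an unadjusted p under 0.05 against normal and at least 1 CPM on average are named, at most 4 per time, and further genes beside a result. For the latter (Cxcr1, Cxcr2, Ackr1, Ccl21, Adam10, Adam17 and the markers) values were known when they were named. Promoters are from RefSeq (GRCr8), used by symbol.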

Additional observations from a re-analysis of the deposited data

How the results depend on the processing

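The number of members called was 0 in edgeR at each time against normal. At 1 h it was 5 with DESeq2, 1 (Cxcl2) with the nerve covariate and 0 to 1 when each library was left out in turn. At 4 h it was 4 with DESeq2, 2 (Cxcl1 and Cxcl2) with the nerve covariate and 0 without any one library. With libraries left out one at a time, 5 to 7 members had an unadjusted p under 0.05 at 1 h, 3 to 6 at 4 h and 0 to 3 for 4 h against 1 h, while all genes ran from 8.04 to 23.5%, from 9.61 to 12.6% and from 0.806 to 20.7%. For 4 h against 1 h their number was 1 with no filter (Ccl3) and 1 with DESeq2 (Ccl2), against 2.25% and 3.62% of all genes. These counts of members are a description, since Cxcl2 and Cxcl10 passed the low-count filter through the ischemic groups. Over all genes, DESeq2 called 702 at 1 h and 606 at 4 h, the nerve covariate 18 and 134, and fits of only the groups compared 4 and 4, against 9 and 14 in edgeR.

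With a replicate block, 1 member (Cxcl1) was called at each time, with edgeR adjusted p of 0.0436 and 0.0323. Over all genes the block gave 7 calls at each time. An unadjusted p under 0.05 was found for 5 members at 1 h, 3 at 4 h and 2 for 4 h against 1 h. In that fit 2781, 1759 and 387 of the 15482 genes had such a p. Correlations of same-numbered libraries ran from -0.651 to 0.660. They were positive in the 3 pairs of replicate 2 (0.282 to 0.623) and below 0 in the 3 pairs of replicate 1, so the numbers were not taken as pairs.

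The sign turned in few cases. Log2 fold changes with one library left out ran from -1.57 to 0.094 for Cxcl12 at 1 h (0.094 without normal replicate 1) and from -0.37 to 2.15 for Ccl2 at 4 h (-0.37 without replicate 3 at 4 h). For 4 h against 1 h they ran from -1.49 to 0.11 for Cxcl1, from -0.77 to 0.084 for Cxcl16 and from -0.996 to 0.18 for Cx3cl1. Cxcl1 turned without replicate 3 at 1 h (0.11) or replicate 1 at 4 h (0.068), and Cxcl16 and Cx3cl1 without replicate 2 at 1 h. With the nerve covariate Cxcl1 was 0.14 and Cxcl12 0.16. The cause was not tested. Scaled by library size alone, all genes had a median log2 fold change of -0.15 at 4 h and -0.24 for 4 h against 1 h, and no member turned sign. Counts of Cxcl3 and Ccl3 were too low for a test in the fit of all libraries.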
